A study of Mus musculus with 2 samples.

Results

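A set of 6 genes of the pappalysin and insulin-like growth factor (IGF) system, Pappa, Pappa2, Igf1, Igf1r, Igfbp4 and Igfbp5, was followed through inhibitory and excitatory spinal nuclei of the prodynorphin lineage. They are 6 of the 19575 genes in the count table, and all 6 were found by symbol. They were chosen by name, with earlier results of these data in view, in which Pappa2 stood among genes with a higher injured level in excitatory nuclei. All values of injured against naive nuclei below are therefore descriptions.

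The nuclei came from the dorsal cord of lumbar segments L3 to L5 of adult mice of the genotype Pdyn-IRES-Cre(+/-); R26-LSL-Sun1.eGFP(+/-), which both groups shared. In these mice Cre under the control of the prodynorphin gene (Pdyn) switches on a green fluorescent protein of the nuclear envelope, so the sorted nuclei include cells that used Pdyn only at some earlier time. The injured library pooled 8 adult mice of either sex that had an incision of the left plantar hindpaw at postnatal day 3, and the naive library pooled 8 littermates that were exposed to isoflurane only on that day. Each group was 1 library of single-nucleus RNA counted with 10x Genomics 3' v3 chemistry, which leaves the injured and naive values without a replicate check and without a test.

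IGF1 is a secreted growth factor that acts through the receptor tyrosine kinase IGF1R, which signals through the PI3K-AKT and RAS-MAPK pathways. Outside the cell most IGF1 is held by binding proteins, among them IGFBP4 and IGFBP5. The pappalysins PAPP-A and PAPP-A2 are secreted zinc proteases of the metzincin family. PAPP-A cuts IGFBP4 and IGFBP5, PAPP-A2 cuts IGFBP3 and IGFBP5, and each cut frees IGF.

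The catalytic site is the stretch that defines both proteases, and its coding sequence is shown for the 2 mouse genes to make plain how closely they match. The sequences are the sense strand, 5′ to 3′, of GENCODE M21 transcripts on GRCm38 (the same assembly as mm10). Capitals mark the 5 codons that are fixed in the zinc-binding motif of metzincins.
Pappa: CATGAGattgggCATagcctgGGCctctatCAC
Pappa2: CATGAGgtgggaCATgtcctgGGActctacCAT
The stretch covers coding bases 1675 to 1707 of 4875 in Pappa and 2200 to 2232 of 5370 in Pappa2. Of its 33 bases 25 were identical between the genes (75.8%), and 9 of its 11 codons encoded the same amino acid. The motif was found 1 time in each coding sequence. Pappa (ENSMUSG00000028370) lies on chromosome 4 at 65124174 to 65357509 on the plus strand, and Pappa2 (ENSMUSG00000073530) on chromosome 1 at 158711727 to 158980490 on the minus strand.

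The other genes lie at chromosome 10, 87858265 to 87937042, plus strand (Igf1, ENSMUSG00000020053), chromosome 7, 67952827 to 68233668, plus strand (Igf1r, ENSMUSG00000005533), chromosome 11, 99041244 to 99054392, plus strand (Igfbp4, ENSMUSG00000017493), and chromosome 1, 72857932 to 72874884, minus strand (Igfbp5, ENSMUSG00000026185). The binding protein genes span 13.1 kb and 17.0 kb, against 280.8 kb for Igf1r, 268.8 kb for Pappa2, 233.3 kb for Pappa and 78.8 kb for Igf1. Levels are counts per gene and are not divided by length, so they are compared between classes and libraries and not between genes. The antisense gene Igf1os overlaps Igf1 and is counted on its own in the table, with 105 UMIs. Reads on the opposite strand may or may not have been counted, which the sources used here do not say.

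The injured library held 3547 nuclei with 32934588 unique molecular identifiers (UMIs, counted molecules) and a median of 8464 per nucleus. The naive library held 4063 nuclei with 30602222 UMIs and a median of 6955. Clusters were named from marker genes, without the 6 genes and the rest of the pathway among the genes used for clustering. Inhibitory-like nuclei numbered 2190 injured (61.7%) and 2603 naive (64.1%), and excitatory-like nuclei 701 injured (19.8%) and 810 naive (19.9%). The summed level of 6 inhibitory markers was 944 CPM (UMIs scaled to a total of 1000000 over the class) in injured and 978 CPM in naive inhibitory-like nuclei, against 47.4 and 61.9 CPM in excitatory-like nuclei of the same libraries. The 5 excitatory markers summed to 104 CPM injured and 118 CPM naive in inhibitory-like nuclei, against 445 and 459 CPM in excitatory-like nuclei. Both lists hold genes that set the class (Gad1, Gad2, Slc32a1 and Slc6a5 against Slc17a6), so these gaps follow in part from the naming. A further 504 injured and 439 naive nuclei stayed unnamed. Xist and Y-linked UMIs, which mark mice of different sex, occurred together in 5.72% of the injured and 4.73% of the naive nuclei. The libraries shared 3 cell barcodes. All intervals are exact, at 95%, and cover counting error only, so they leave out variation between mice and between nuclei.

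Among the named classes, Igf1 was highest in inhibitory-like nuclei. There it stood at 58.1 CPM in the injured library (54.7 to 61.7, 1076 UMIs) and at 64.0 CPM in the naive library (60.4 to 67.8, 1185 UMIs). Unnamed nuclei had 26.2 CPM injured and 26.5 CPM naive, with 12.5% of the injured and 7.75% of the naive Igf1 UMIs. In excitatory-like nuclei 15 UMIs gave 1.95 CPM in the injured library (1.09 to 3.22), and 37 UMIs gave 5.03 CPM in the naive library (3.54 to 6.94). The level in inhibitory-like over excitatory-like nuclei was 29.7 in the injured library (18 to 53.3) and 12.7 in the naive library (9.17 to 18.2). The injured value, 4.89 on the log2 scale, was 2.80 with nuclei classed by their own transmitter genes and 5.97 in those holding only Y-linked UMIs. The naive log2 value lay between 3.08 and 4.20 under the alternatives run, so the direction was the same throughout and the size was not fixed. Of the 5 genes with enough counts for this comparison, Igf1 alone was at least 2-fold higher in inhibitory-like nuclei in both libraries. Across all 13648 genes with at least 100 UMIs, 3.97% met that mark.

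**Figure D1:**
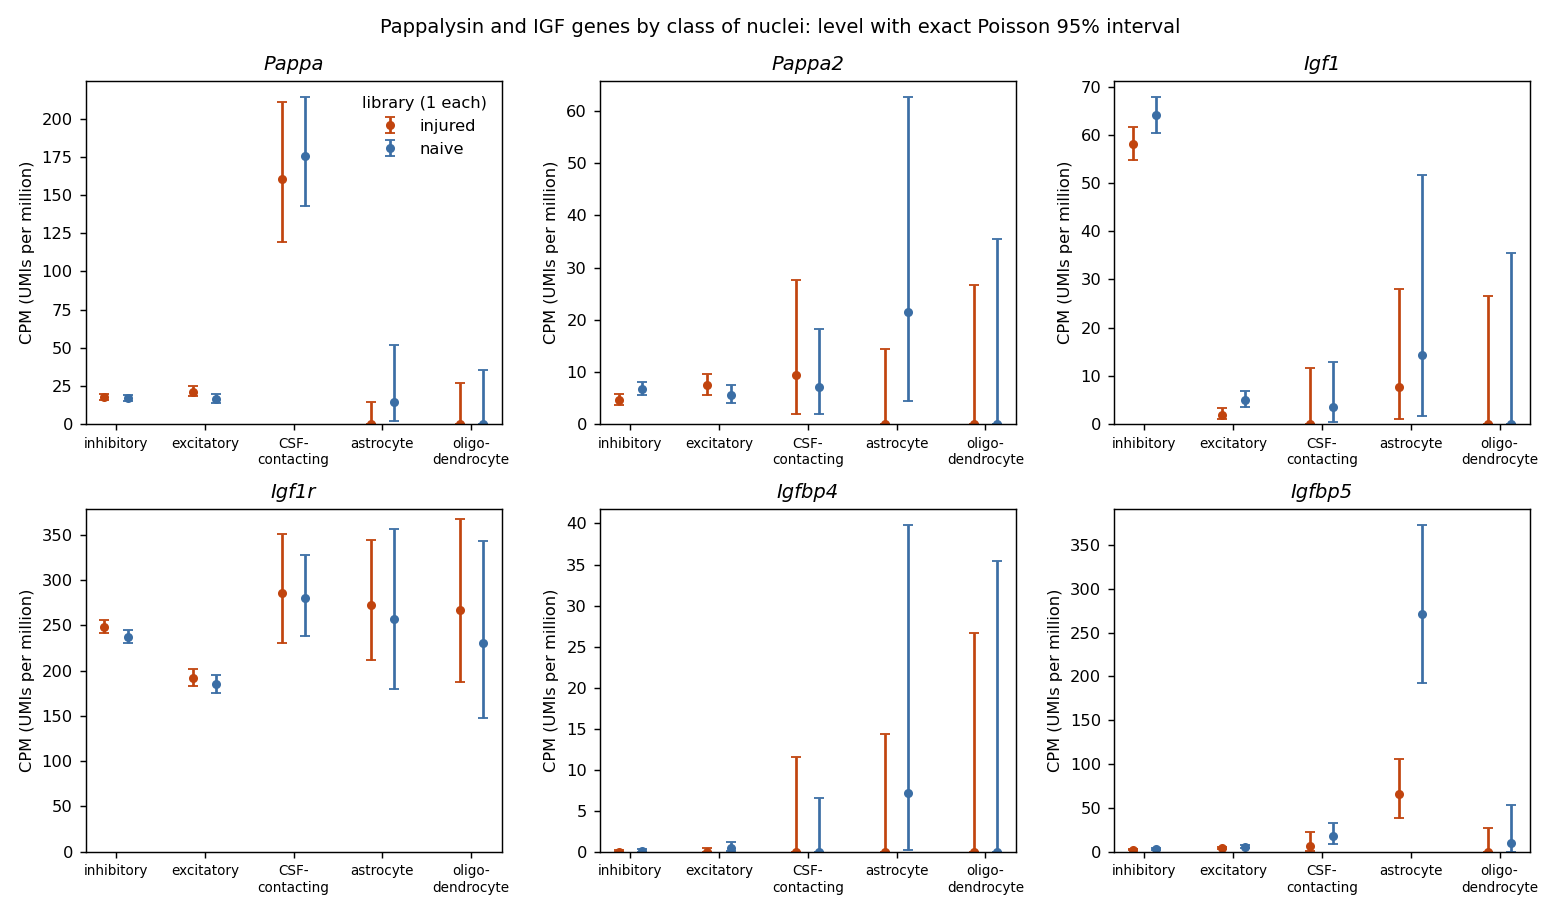
Level of each of the 6 genes in CPM (linear axes that start at 0) in 5 classes of nuclei, injured library in orange left of the naive library in blue, with exact Poisson 95% intervals. Igf1 stood at 58.1 and 64.0 CPM in inhibitory-like nuclei, Pappa was highest in CSF-contacting neuron-like nuclei (160 and 176 CPM), and Igfbp5 was highest in astrocyte-like nuclei (66.1 and 271 CPM).

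Within the inhibitory class Igf1 was uneven. The highest level was in cluster 0, whose other leading genes were Nox4, Col5a3 and Tacr3: 170 CPM in the injured library (155 to 187, 323 nuclei) and 163 CPM in the naive library (150 to 177, 485 nuclei). Cluster 2, led by Pamr1 and Nos1, the neuronal nitric oxide synthase gene, stood at 119 CPM injured (106 to 133) and 129 CPM naive (116 to 143). Cluster 5, led by Cartpt, the precursor of the CART peptides, stood at 86.2 CPM injured (73.0 to 101) and 70.6 CPM naive (58.6 to 84.4). The intervals of the 2 libraries overlapped in each of these clusters, while the 3 clusters kept the same order in both libraries.

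These 3 clusters held 84.5% of the inhibitory-like Igf1 UMIs in the injured library (909 of 1076) and 85.9% in the naive library (1018 of 1185), in 38.9% and 42.8% of the inhibitory-like nuclei. Outside them Igf1 averaged 14.5 CPM injured (12.4 to 16.9) and 15.6 CPM naive (13.3 to 18.1). Clusters 10 and 1.8 held no Igf1 UMI in either library. Igf1 was therefore spread over part of the class and at or near 0 in other parts.

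The share of nuclei with an Igf1 UMI in cluster 0 was 59.1% injured and 59.4% naive. With every nucleus thinned to 3000 UMIs, which removes the depth difference, it was 33% injured and 37.5% naive. Over the whole inhibitory-like class the thinned share was 12.3% injured (11 to 13.8) and 15.1% naive (13.8 to 16.6), after leaving out 13 and 24 shallower nuclei. The unthinned shares were 24.5% injured and 26.0% naive. Oligodendrocyte-like nuclei served as a background for free RNA. Of these, 0 of 45 injured and 0 of 42 naive nuclei had an Igf1 UMI, which allows shares of up to 7.87% and 8.41%. Their median depths were 2593 UMIs injured and 2147 naive, against 7850 injured and 6698 naive in inhibitory-like nuclei.

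The injured over naive ratio of Igf1 was 0.908 in inhibitory-like nuclei (0.835 to 0.987), which is not past the mark for a call (a ratio of at most 0.8, or at least its inverse, with at least 100 UMIs in the class). It was 1.05 in cluster 0 (0.920 to 1.19), 0.921 in cluster 2 (0.789 to 1.07) and 1.22 in cluster 5 (0.954 to 1.56). Each cluster was also given the same weight in both libraries, set by its UMIs in the 2 libraries together. The log2 ratio of the class then moved to 0.03, against -0.14 as measured. The 3 clusters held 38.9% of the injured and 42.8% of the naive inhibitory-like nuclei.

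In excitatory-like nuclei Igf1 had a ratio of 0.388 (0.198 to 0.725), from 15 injured and 37 naive UMIs, under the minimum of 100 UMIs set for a call. The nuclei with a UMI numbered 14 of 701 injured (2.0%) and 20 of 810 naive (2.47%), and 1 naive nucleus alone held 6 UMIs. Thinned, the shares were 1.0% injured and 1.11% naive. The ratio turned round when each nucleus was classed by its own transmitter genes, with a log2 ratio of 0.67 against -1.37 by cluster. Its direction is therefore not settled by these counts.

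The genes that followed Igf1 most closely over the 24 named neuron clusters were ranked with both libraries summed. By Pearson correlation of log2(CPM + 1), among 8920 genes with at least 500 UMIs, the first 3 were Rab12 (0.746), Elmo1 (0.719) and Kcnj3 (0.701), which encodes a subunit of inwardly rectifying potassium channels. These are descriptions over clusters that share the same 2 libraries.

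Igf1r, the receptor gene, was present in every neuron cluster. In inhibitory-like nuclei it stood at 249 CPM in the injured library (242 to 256) and 238 CPM in the naive library (231 to 245). In excitatory-like nuclei it stood at 192 CPM injured (183 to 202) and 185 CPM naive (176 to 195). Inhibitory-like nuclei were 1.29-fold higher in the injured library (1.22 to 1.37) and 1.28-fold higher in the naive library (1.21 to 1.36), under the 2-fold mark in both.

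Over the 15 inhibitory-like clusters, both libraries together, Igf1r ranged from 74.6 CPM in cluster 13, led by Atp10a and Rasgrp4, to 336 CPM in cluster 12, led by Pax5 and Rxfp2. Cluster 13 stood apart in each library, at 88.5 CPM injured (70.1 to 110) and 62.8 CPM naive (48.7 to 79.8), below every other inhibitory-like cluster, although its injured interval reached those of the small clusters 1.4 and 1.8. Cluster 12 stood at 352 CPM injured (318 to 388) and 320 CPM naive (287 to 355), and its intervals overlapped those of clusters 4, 7, 8 and 11 in both libraries. Over the 9 excitatory-like clusters the range was 122 CPM in cluster 18 to 220 CPM in cluster 19.

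**Figure D2:**
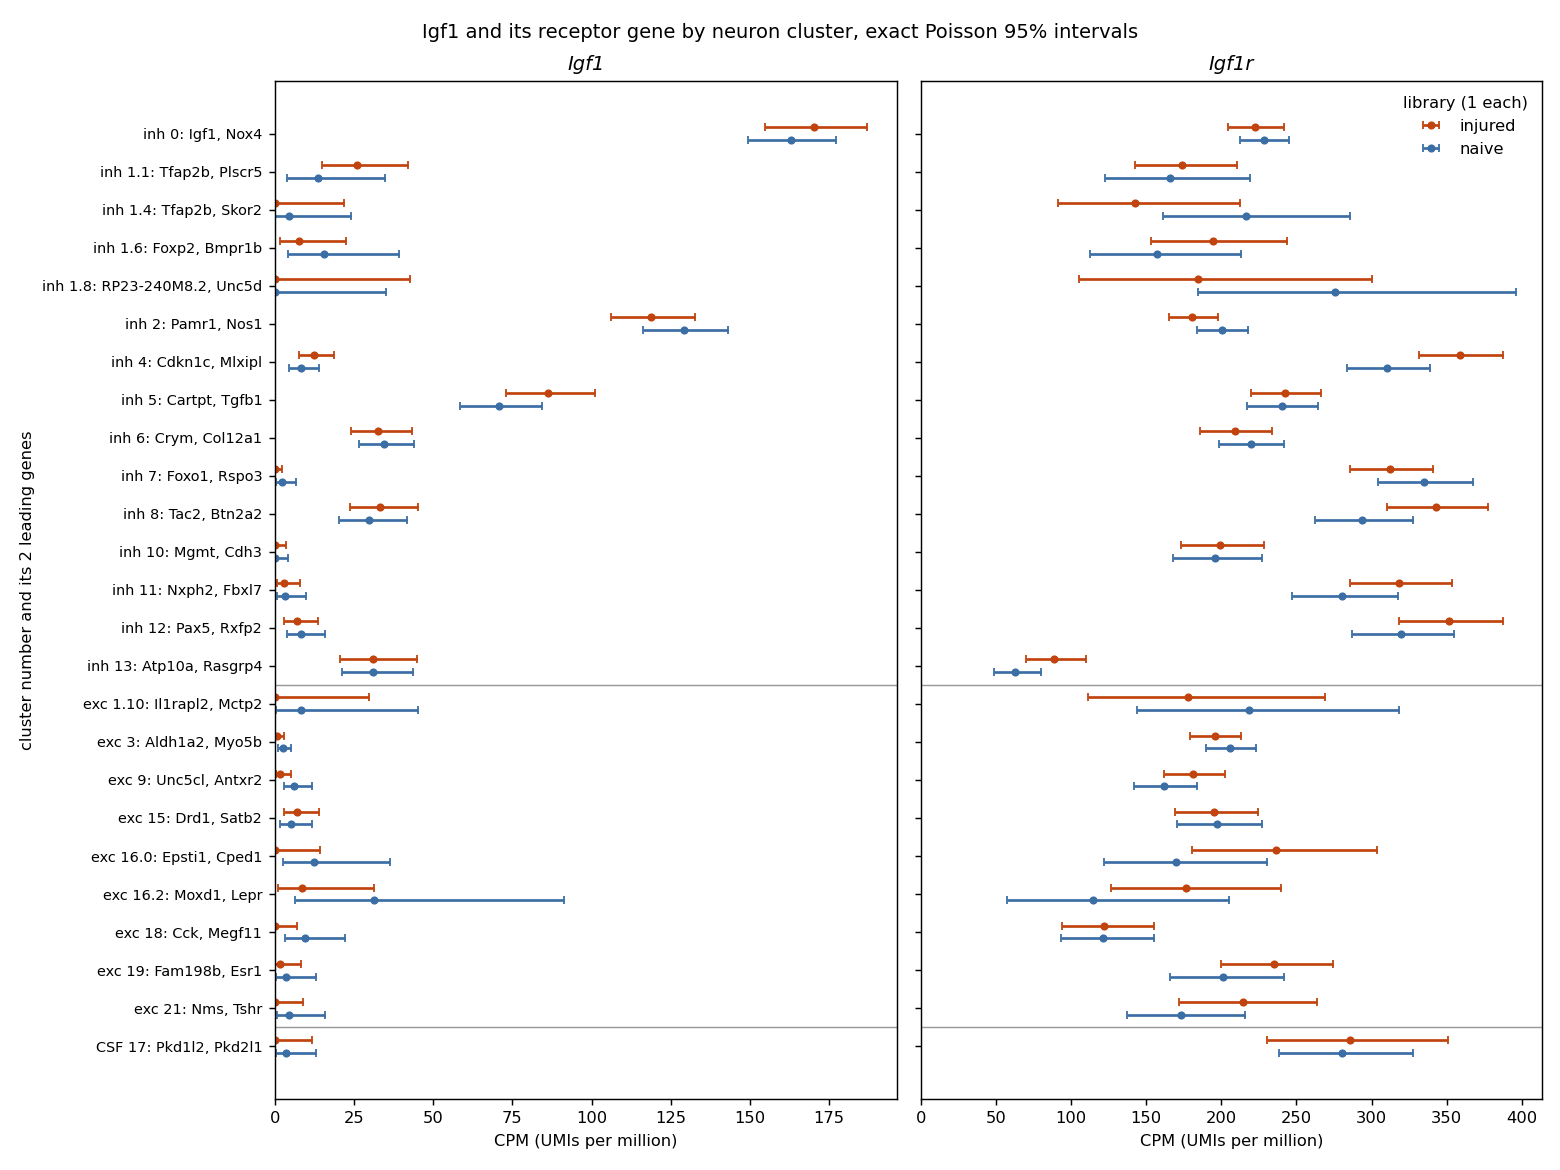
Igf1 and Igf1r in CPM (linear axes from 0) in each named neuron cluster, injured library in orange above the naive library in blue, with exact Poisson 95% intervals; rows give the class, the cluster number and 2 leading genes. Igf1 was high in clusters 0, 2 and 5. With both libraries together it ranged from 1.62 CPM to 15.3 CPM (cluster 16.2) over the excitatory-like clusters. The median inhibitory-like cluster had 10.7 CPM. Igf1r was counted in every cluster shown, lowest in cluster 13 (88.5 and 62.8 CPM).

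The clusters with most Igf1 were not those with most Igf1r. Cluster 0, with the highest Igf1 level, had Igf1r at 223 CPM injured (205 to 241) and 228 CPM naive (212 to 245). Clusters 7 and 12, with Igf1r at 312 CPM or more in both libraries, had few Igf1 UMIs. In thinned inhibitory-like nuclei with an Igf1 UMI, an Igf1r UMI was found in 42.9% injured (115 of 268) and 49.5% naive (193 of 390), against 49.0% injured and 47.1% naive of the nuclei without one. Ligand and receptor transcripts were thus found in the same nuclei at about the rate of the receptor in the class, and the 2 libraries lay on different sides of it.

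The injured over naive ratio of Igf1r was 1.05 in inhibitory-like nuclei (1.0 to 1.09) and 1.04 in excitatory-like nuclei (0.963 to 1.12), both short of the fold mark. Thinned shares of nuclei with a UMI were 48.3% injured and 47.5% naive in inhibitory-like nuclei, and 44.8% injured and 39.9% naive in excitatory-like nuclei. No class was known to lack the receptor, so these shares have no background value beside them. The genes nearest to Igf1r over the 24 clusters were Dpysl5 (0.801), Slc37a1 (0.792) and Dido1 (0.790).

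Pappa, which encodes PAPP-A, reached its highest levels in 2 clusters of different classes, while the inhibitory-like class held 48.3% of its injured and 54.2% of its naive UMIs. In the class sums it stood at 17.9 CPM in injured inhibitory-like nuclei (16.0 to 20, 332 UMIs) and 16.9 CPM in naive ones (15.1 to 18.9, 313 UMIs). In excitatory-like nuclei it stood at 21.2 CPM injured (18.1 to 24.7, 163 UMIs) and 16.3 CPM naive (13.5 to 19.5, 120 UMIs). The inhibitory-like over excitatory-like ratio was 0.844 injured and 1.04 naive, so the class sums were close.

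Cluster 18, an excitatory-like cluster led by Cck, the cholecystokinin gene, and Megf11 and Tac1, the substance P precursor gene, stood far above the other excitatory-like clusters. Pappa reached 242 CPM there in the injured library (202 to 287) and 188 CPM in the naive library (153 to 229). It held 79.1% of the excitatory-like Pappa UMIs in the injured library (129 of 163) and 82.5% in the naive library (99 of 120), in 8.70% and 8.64% of the excitatory-like nuclei. Outside it the excitatory-like level was 4.76 CPM injured (3.30 to 6.65) and 3.08 CPM naive (1.90 to 4.70).

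Left without cluster 18, the comparison between classes changed: the log2 ratio of inhibitory-like over excitatory-like nuclei moved to 1.91 in the injured library and 2.46 in the naive library. Inhibitory-like nuclei had a lower but wider spread level, from 2.04 CPM in cluster 10 to 27.0 CPM in cluster 6. In cluster 18 a Pappa UMI was found in 50.8% of injured and 54.3% of naive nuclei, and in 36.1% and 28.6% of the thinned nuclei. Oligodendrocyte-like nuclei had none in either library.

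The CSF-contacting neuron-like nuclei, cluster 17, led by the polycystin channel genes Pkd1l2 and Pkd2l1, were the other Pappa site. They held 51 UMIs in 48 injured nuclei, 160 CPM (119 to 211), and 99 UMIs in 106 naive nuclei, 176 CPM (143 to 214). A Pappa UMI was found in 62.5% of these nuclei in the injured and 54.7% in the naive library, and in 43.5% and 42.6% of the thinned nuclei. The ratio of injured over naive was 0.912 (0.637 to 1.29).

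**Figure D3:**
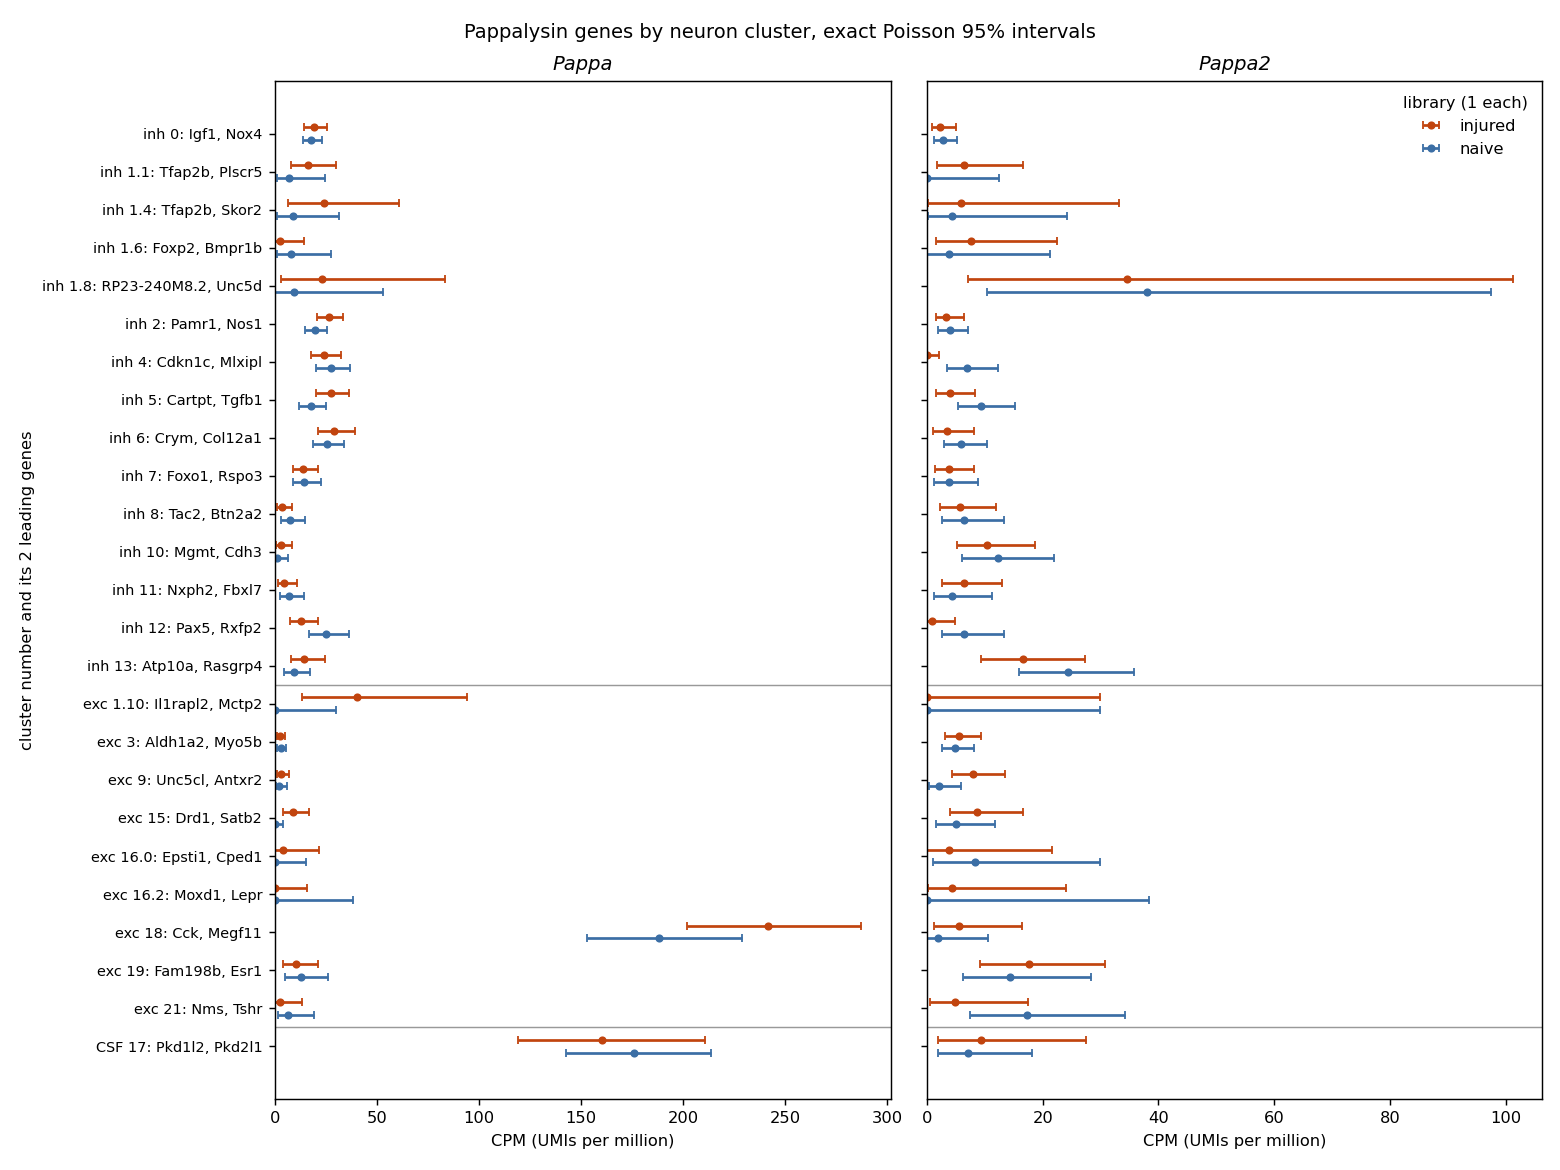
Pappa and Pappa2 in CPM (linear axes from 0, different scales) in each named neuron cluster, injured library in orange above the naive library in blue, with exact Poisson 95% intervals. Pappa stood out in excitatory-like cluster 18 (242 and 188 CPM) and CSF-contacting neuron-like cluster 17 (160 and 176 CPM), while Pappa2 was low throughout, with wide intervals.

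Set against naive nuclei, Pappa had a ratio of 1.06 in injured inhibitory-like nuclei (0.906 to 1.24) and 1.30 in injured excitatory-like nuclei (1.02 to 1.66). The second passed the fold mark, as 1.96% of the 10785 genes with at least 100 UMIs in excitatory-like nuclei did in that direction. In cluster 18 itself the ratio was 1.29 (0.982 to 1.69), and 1 injured nucleus there held 14 Pappa UMIs, against at most 7 in a naive one. In excitatory-like nuclei with only Xist UMIs it was 1.33 (1.02 to 1.75), and in those with only Y-linked UMIs, from other mice of the same pools, 1.66 (0.841 to 3.43). The log2 ratio, 0.38 as measured, went under the fold mark without the deepest 10% of nuclei of each library (0.24), with the authors' normalized values (0.32) and at the lower clustering resolution (0.32).

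A cluster left unnamed, 1.0, led by the cholinergic genes Slc5a7 and Chat, differed more. Pappa stood there at 42.6 CPM injured (79 UMIs in 127 nuclei) and 17.0 CPM naive (15 UMIs in 91 nuclei), a ratio of 2.50 (1.43 to 4.68). Thinned, the share of its nuclei with a Pappa UMI was 6.35% injured and 5.49% naive. The median depth of the cluster was 13288 UMIs injured and 9190 naive. Oligodendrocyte-like nuclei held no Pappa UMI, with upper limits of 26.6 CPM injured and 35.4 CPM naive. The part of free RNA in the values of cluster 1.0 was not tested. The genes nearest to Pappa over the named clusters were Col4a3bp (0.718), Acad10 (0.715) and Cacna1c (0.661), which encodes the pore of an L-type calcium channel.

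Pappa2, which encodes PAPP-A2, was sparse, and its 2 class ratios pointed in opposite directions. In inhibitory-like nuclei it stood at 4.59 CPM injured (3.67 to 5.67, 85 UMIs) and 6.70 CPM naive (5.57 to 7.99, 124 UMIs), a ratio of 0.685 (0.514 to 0.910). In excitatory-like nuclei it stood at 7.42 CPM injured (5.62 to 9.62, 57 UMIs) and 5.58 CPM naive (4.0 to 7.56, 41 UMIs), a ratio of 1.33 (0.876 to 2.04). The inhibitory-like ratio was past the fold mark, as were 12.6% of the 12782 genes with at least 100 UMIs in that class in the same direction. The excitatory-like total of 98 UMIs was just under the minimum for a call, and its interval holds 1.

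Most nuclei with Pappa2 held a single molecule. In the whole injured library 141 of 166 nuclei with a UMI had only 1, and in the naive library 167 of 187. A few nuclei held many: the 10 nuclei with most UMIs carried 29.0% of the injured and 20.1% of the naive Pappa2 UMIs, and the highest, with 20 UMIs injured and 11 naive, were both in unnamed cluster 1.0. In that cluster Pappa2 stood at 29.6 CPM injured (55 UMIs) and 47.7 CPM naive (42 UMIs). Among 9 injured nuclei named oligodendrocyte precursor-like, all 11 Pappa2 UMIs were in 1 nucleus.

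Thinned, the inhibitory-like share with a Pappa2 UMI was 1.42% injured (0.970 to 2.02) and 1.94% naive (1.44 to 2.55), and the excitatory-like share 2.0% injured (1.10 to 3.34) and 2.10% naive (1.23 to 3.34). The unthinned shares were 3.47% injured and 4.42% naive in inhibitory-like nuclei, and 7.42% injured and 4.94% naive in excitatory-like nuclei. The log2 ratio of the excitatory-like nuclei was -0.05 thinned, against 0.41 as measured. No oligodendrocyte-like nucleus had a Pappa2 UMI, which allows shares of up to 7.87% injured and 8.41% naive. These limits are for unthinned nuclei, and only 17 injured and 10 naive oligodendrocyte-like nuclei remained after thinning. That is too few to set a background for the thinned shares. The part of free RNA in the Pappa2 values was not tested.

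By cluster, Pappa2 was lower in injured than in naive nuclei in 11 of 15 inhibitory-like clusters and higher in 4. In excitatory-like nuclei it was higher in injured than in naive nuclei in 6 of 9 clusters, lower in 2 and at 0 in both libraries in the other. The interval of the ratio lay off 1 in only 1 cluster of each class, cluster 4 (below 1) and cluster 9 (above 1). These tallies have no share over all genes beside them. The median log2 ratio of all genes was itself -0.08 in inhibitory-like and -0.07 in excitatory-like nuclei. The inhibitory-like log2 ratio lay between -0.64 and -0.35 under every alternative run, so it stayed past the fold mark. In inhibitory-like nuclei with only Xist UMIs the ratio was 0.685 (0.471 to 0.990), and in those with only Y-linked UMIs 0.703 (0.405 to 1.21). In excitatory-like nuclei the same sets gave 1.36 (0.814 to 2.30) and 1.17 (0.504 to 2.83).

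Among the inhibitory-like clusters, cluster 13 had the highest Pappa2 level after the small cluster 1.8, at 16.6 CPM injured and 24.4 CPM naive, and the lowest Igf1r level. Among the excitatory-like clusters, cluster 19, led by Fam198b and Esr1, the estrogen receptor alpha gene, stood highest at 17.6 CPM injured (9.11 to 30.8) and 14.4 CPM naive (6.20 to 28.3). Cluster 9 was 8.04 CPM injured and 2.03 CPM naive, a ratio of 3.96 (1.10 to 21.5). In inhibitory-like cluster 4, led by Cdkn1c and Mlxipl, no UMI was counted in 258 injured nuclei, against 11 UMIs in 281 naive nuclei, and the interval of the ratio reached up to 0.357. The 2 pappalysin genes were rarely found together: in thinned inhibitory-like nuclei with a Pappa UMI, 2 of 106 injured and 3 of 119 naive nuclei also had a Pappa2 UMI (1.89% and 2.52%). The shares in nuclei without Pappa, 1.40% injured and 1.91% naive, were close to these. The genes nearest to Pappa2 over the clusters were Fancc (0.804), Wdr76 (0.788) and Brms1l (0.771).

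Stanniocalcins inhibit the pappalysins. Stc1 stood at 2.16 CPM injured and 2.11 CPM naive in inhibitory-like nuclei, and at 3.26 CPM injured and 4.90 CPM naive in excitatory-like nuclei, where its ratio was 0.665 (0.383 to 1.14). Stc2 had 11 injured and 6 naive UMIs in inhibitory-like nuclei, and 9 injured and 8 naive in excitatory-like nuclei. Htra1, another protease that cuts IGF binding proteins, had ratios of 0.837 (0.522 to 1.33) and 0.928 (0.548 to 1.57) in the inhibitory-like and excitatory-like class. None of these 3 genes reached 100 UMIs in a class, so none was called.

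Igfbp4, the main substrate of PAPP-A, was almost not counted in these nuclei. The whole injured library held 0 UMIs, and the naive library held 14 UMIs in 12 nuclei, 0.457 CPM (0.250 to 0.768). Taking 3 counts over the injured library as its limit (0.0911 CPM), the injured level was at least 5.02-fold lower than the naive level as measured. The exact interval of the ratio, which also covers the counting error of the naive UMIs, reached up to 0.280. Inhibitory-like nuclei held 0 injured and 2 naive UMIs, and excitatory-like nuclei 0 injured and 3 naive UMIs. The other naive UMIs were in unnamed clusters and in 1 astrocyte-like nucleus, and the 14 UMIs came from 8 clusters.

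A gap of that kind was not peculiar to this gene. Among 157 genes with 14 naive UMIs, 3 had none in the injured library, and their median was 13 injured UMIs. Among 1529 genes with 10 to 20 naive UMIs, 57 had none (3.73%). A share of 0 of 2190 injured inhibitory-like nuclei allows up to 0.168%, and 0 of 701 injured excitatory-like nuclei up to 0.525%.

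Igfbp5, a substrate of both pappalysins, was low in neurons and highest in astrocyte-like nuclei. Inhibitory-like nuclei had 2.43 CPM injured (1.77 to 3.25, 45 UMIs) and 2.86 CPM naive (2.14 to 3.74, 53 UMIs). Excitatory-like nuclei had 4.04 CPM injured (2.74 to 5.73, 31 UMIs) and 5.58 CPM naive (4.0 to 7.56, 41 UMIs). The inhibitory-like level was below the excitatory-like level in both libraries, by ratios of 0.602 injured (0.373 to 0.984) and 0.513 naive (0.335 to 0.792). In injured nuclei with only Y-linked UMIs the log2 ratio was 0.39, against -0.73 over all injured nuclei of the 2 classes, so the injured direction did not hold in that set. The highest inhibitory-like cluster was 8, led by Tac2, the neurokinin B precursor gene, at 15.7 CPM injured (9.47 to 24.6) and 14.8 CPM naive (8.44 to 24.0).

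Astrocyte-like nuclei held 17 Igfbp5 UMIs in 47 injured nuclei, 66.1 CPM (38.5 to 106), and 38 UMIs in 52 naive nuclei, 271 CPM (192 to 373). Over all nuclei the injured over naive ratio of Igfbp5 was 0.685 (0.536 to 0.875). Of the 14280 genes with at least 100 UMIs over all nuclei 11.8% were past the mark in that direction, and 2.61% in the other. Without the astrocyte-like nuclei, an alternative chosen after the data had been seen, it was 0.772 (0.587 to 1.01), from 101 injured and 122 naive UMIs. In the neuron classes the ratios were 0.849 in inhibitory-like nuclei (0.558 to 1.29) and 0.724 in excitatory-like nuclei (0.439 to 1.18), both with intervals that hold 1 and with fewer than 100 UMIs. The 7 astrocyte markers summed to 12.9 CPM injured and 10.1 CPM naive in inhibitory-like nuclei, and to 13.5 CPM injured and 19.2 CPM naive in excitatory-like nuclei, and their part in the Igfbp5 values was not tested. The median depth of the astrocyte-like nuclei was 3503 UMIs injured and 2126 naive.

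**Figure D4:**
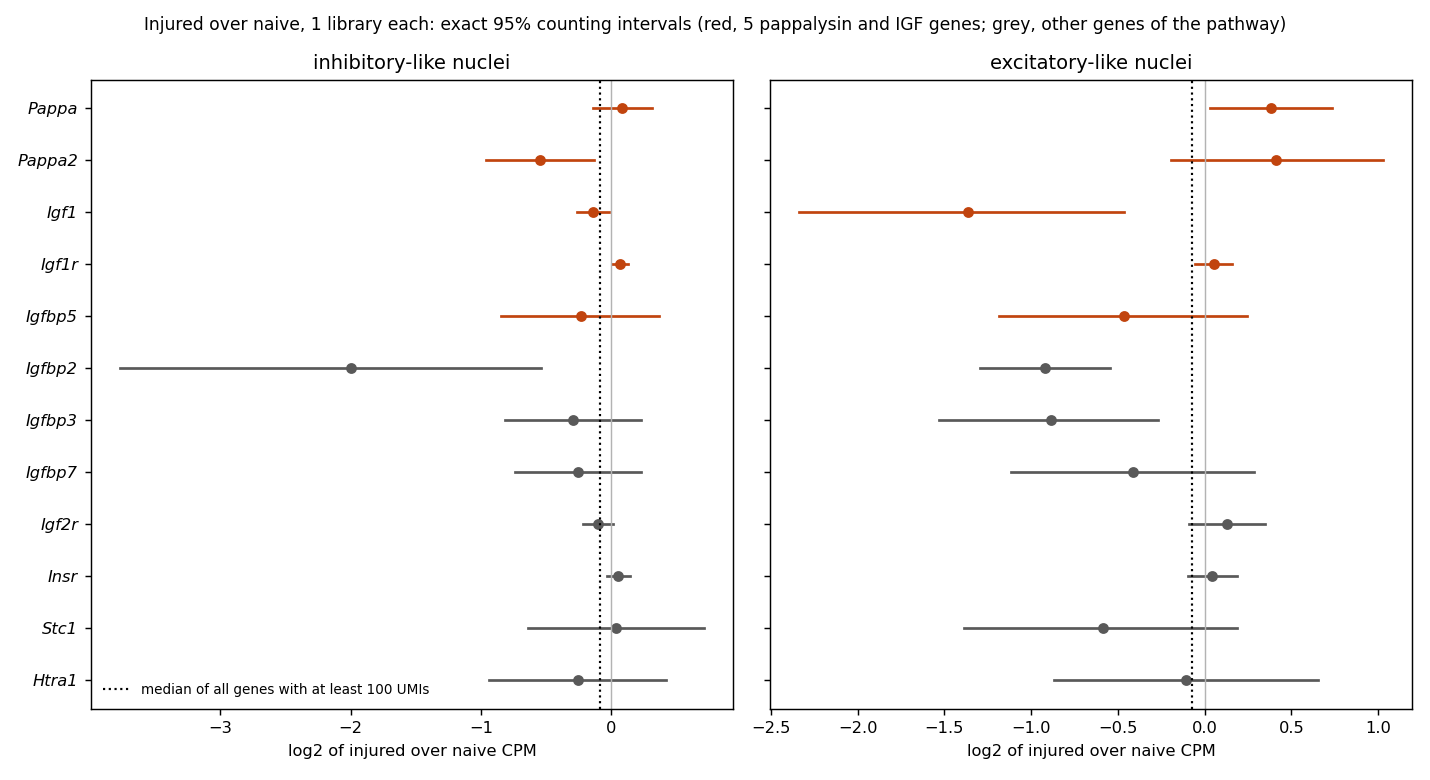
Log2 of the injured over naive CPM of 5 pappalysin and IGF genes (red) and 7 other genes of the pathway (grey) in inhibitory-like nuclei (left) and excitatory-like nuclei (right), with exact 95% counting intervals and the median of all genes with at least 100 UMIs as a dotted line (-0.08 and -0.07). Pappa2 lies at -0.55 in inhibitory-like and 0.41 in excitatory-like nuclei, and Igf1r at 0.07 and 0.05; the axes have different ranges.

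In all, 4 of the 6 genes had at least 100 UMIs in inhibitory-like nuclei, of which 1 was lower in injured nuclei (Pappa2) and none higher, against 12.6% lower and 1.74% higher over all genes. In excitatory-like nuclei 2 of the 6 had enough UMIs, of which 1 was higher (Pappa) and none lower, against 1.96% higher and 13.8% lower over all genes. The median log2 ratio of those with enough UMIs was -0.04 in inhibitory-like and 0.22 in excitatory-like nuclei, and those of all genes were -0.08 and -0.07.

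Of the other binding proteins, Igfbp2 was past the mark with enough UMIs, in excitatory-like nuclei. It had 12.2 CPM injured and 23.1 CPM naive there, a ratio of 0.530 (0.407 to 0.685), and only 5 injured and 20 naive UMIs in inhibitory-like nuclei. Its excitatory-like ratio was 0.439 in nuclei with only Xist UMIs (0.298 to 0.637) and 0.588 in those with only Y-linked UMIs (0.386 to 0.890). Igfbp3, the other substrate of PAPP-A2, had 4.56 CPM injured and 8.43 CPM naive in excitatory-like nuclei, a ratio of 0.541 (0.347 to 0.831), from 35 injured and 62 naive UMIs. In inhibitory-like nuclei its ratio was 0.817 (0.567 to 1.17).

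Igfbp7, a weak IGF binder, had ratios of 0.839 in inhibitory-like nuclei (0.599 to 1.17) and 0.752 in excitatory-like nuclei (0.462 to 1.22). Igfbpl1 had 13 injured and 22 naive UMIs in inhibitory-like nuclei, and 9 injured and 7 naive in excitatory-like nuclei. Igf2, Igfbp6 and the excitatory-like counts of Insrr were at or under 3 counts per class and library. The insulin receptor gene Insr, whose product can pair with IGF1R, stood at 118 CPM injured and 114 CPM naive in inhibitory-like nuclei and had ratios of 1.04 (0.977 to 1.10) and 1.03 (0.935 to 1.14) in the 2 classes. Igf2r, which takes up IGF2, had ratios of 0.929 (0.858 to 1.01) and 1.09 (0.940 to 1.27). Insrr had 20 injured and 25 naive UMIs in inhibitory-like nuclei.

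Of 53 other genes of the pathway 50 were in the table. In inhibitory-like nuclei 41 had at least 100 UMIs, with a median log2 ratio of -0.05. None of them was past the fold mark upwards and 3 were lower, against 1.74% higher and 12.6% lower over all genes. In excitatory-like nuclei 38 had enough UMIs, with a median of -0.03. Of these 1 was higher and 4 were lower, against 1.96% higher and 13.8% lower over all genes.

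Among the intracellular genes that reached 100 UMIs in the class, the lowest inhibitory-like ratios were those of the small GTPase gene Hras (0.663, 0.576 to 0.762) and the kinase gene Akt1 (0.679, 0.570 to 0.807). The highest were those of the transcription factor gene Foxo1 (1.21, 0.985 to 1.5) and the adaptor gene Shc3 (1.13, 1.04 to 1.22). In excitatory-like nuclei, under the same limit, the lowest were those of the MAP kinase gene Mapk3 (0.593, 0.398 to 0.876) and Akt1 (0.713, 0.549 to 0.925). The highest were those of Shc3 (1.38, 1.23 to 1.53), at 107 CPM injured and 77.9 CPM naive, and the kinase gene Akt2, whose log2 ratio of 0.32 was just short of the mark. Shc3 had ratios of 1.21 (1.06 to 1.38) in excitatory-like nuclei with only Xist UMIs and 1.83 (1.45 to 2.32) in those with only Y-linked UMIs.

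Between the classes 44 of the other pathway genes could be compared. Foxo1, whose product AKT keeps out of the nucleus, was at least 2-fold higher in inhibitory-like nuclei, by 2.49 in the injured library (1.72 to 3.69) and 2.67 in the naive library (1.75 to 4.24). Igfbp2 was at least 2-fold lower in inhibitory-like nuclei, by ratios of 0.0221 injured and 0.0467 naive. Across all genes these marks were met by 3.97% and 4.6%.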

How the data were processed

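Single-nucleus RNA was measured in 1 injured and 1 naive library. The authors deposited raw UMI counts, with no normalization, and normalized values on the natural log scale; the normalized values equal the log of 1 plus the count times 10000 divided by the nucleus total, with a largest deviation of 5e-15 over 2076 gene rows. Per the submitters' processing notes, the tools were Cell Ranger 3.0.2 and Seurat, with genome build mm10. Whether intronic reads were counted, and how nuclei were filtered, was not given in the sources used here. Every gene in the table had UMIs in 4 or more nuclei.

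All deposited nuclei were used and doublets were not removed. They were clustered together in scanpy 1.11.5 (leidenalg 0.10.2; 2000 variable genes, 30 components, 15 neighbours, resolution 1, seed 0) into 27 clusters, 2 of which were clustered again (15 components, resolution 0.5), which gave 41 in all. The 6 genes, the pathway and other regulated genes, 173 in the table, were kept out. Names came from fixed markers, with thresholds set after the data had been seen (inhibitory to excitatory signal of at least 10, the reverse of at least 4), and may differ from the study's. Counts were summed per class and scaled to CPM, with exact Poisson intervals for levels, conditional binomial intervals for ratios and Clopper-Pearson intervals for shares (scipy 1.17.1). A gene was called at a ratio of at most 0.8, or at least its inverse, where the class held 100 or more of its UMIs; 1 library per group allowed no test. A count of 0 in a library allows up to 3 counts, 0.0911 CPM injured and 0.0980 CPM naive. Named genes were the 6, the other ligands, binding proteins, receptors and inhibitors above 3 counts, the 2 highest and 2 lowest ratios per class of intracellular genes with at least 100 UMIs, and the 3 genes most alike over clusters for genes with at least 200 UMIs. The members and lists were chosen with earlier results of these data known. The ratio scripts were tested on simulated data.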

Additional observations from a re-analysis of the deposited data

Results flagged for a closer look

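Pappa2 was marked because its injured over naive ratio went past the fold mark in opposite directions in the 2 neuron classes, at 0.685 in inhibitory-like nuclei (85 injured and 124 naive UMIs) and 1.33 in excitatory-like nuclei (57 injured and 41 naive UMIs). The excitatory-like UMIs were fewer than the minimum for a call, and the interval of that ratio, 0.876 to 2.04, holds 1. Pappa2 was also chosen with earlier results of these data in view, in which its injured level was higher in excitatory nuclei. The excitatory-like value is therefore no independent check. The difference between the classes was not tested, since each group had 1 library. With nuclei thinned to 3000 UMIs the excitatory-like log2 ratio was -0.05 and the inhibitory-like one -0.43.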

How the results depend on the processing

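No paired analysis was possible because each group had 1 library, and no replicate could be left out. Of 120 log2 injured over naive values under alternatives, 113 moved by less than their counting interval, 6 moved further and 1 turned round: Igf1 in excitatory-like nuclei, 0.67 with nuclei classed by their own transmitter genes against -1.37. In inhibitory-like nuclei those that moved were Igf1 with each cluster weighted the same in both libraries (0.0329 against -0.14) and Igf1r with median scaling (0.15 against 0.07). In excitatory-like nuclei they were Pappa with only Y-linked UMIs (0.73 against 0.38), Igf1r thinned (0.18 against 0.05), Igf1 thinned (-0.15) and Igfbp5 with only Y-linked UMIs (-1.54). Between classes, 77 of 95 values stayed within their interval and 18 moved, among them Pappa, which ranged from -0.58 to 1.91 in the injured library, Igf1 (2.80 to 5.97) and Igfbp5 (-1.43 to 0.39). The cause was not tested.

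Counts of pathway genes past the mark, the 6 included, depended on the filter. Under the main filter 1.74% of all genes were higher and 12.6% lower in inhibitory-like nuclei, and 1.96% and 13.8% in excitatory-like nuclei. Shares over all genes were not computed for the other filters, so the counts under them have no background. In inhibitory-like nuclei 0 were higher and 4 lower, against 2 and 7 with no minimum of UMIs, 7 lower at 20 UMIs or more, 1 lower at 1.5-fold and 1 higher with median scaling. In excitatory-like nuclei 2 were higher and 4 lower, against 5 and 10 with no minimum, 5 and 9 at 20 UMIs or more, and 0 and 2 at 1.5-fold. Igfbp4 and Igfbp5 in both classes, and Igf1 and Pappa2 in excitatory-like nuclei, had fewer than 100 UMIs in the class.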
